A study of Mus musculus with 1646 samples.

Results

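Hox genes encode homeodomain transcription factors that give cells along the body axis their positional identity. Mammals carry them in 4 clusters, HoxA to HoxD, and number them by paralogue group from the 3′ end of a cluster (low numbers, anterior) to its 5′ end (high numbers, posterior). In the embryo they are switched on in that order, and mesenchyme of the hindgut, from which the colon forms, uses posterior members. Each binds DNA through the third helix of its homeodomain, usually together with cofactors of the TALE family such as Meis proteins.

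The 38 Hox genes analysed here were found by symbol among the 46517 genes of the count table, 10 in the HoxA cluster on chromosome 6, 10 in HoxB on chromosome 11, 9 in HoxC on chromosome 15 and 9 in HoxD on chromosome 2. They were measured in 1646 single cells from the colon of male mice aged 10 to 20 weeks, sorted into plates and sequenced with SmartSeq2, which copies the poly(A) RNA of a cell into full-length cDNA. Each of the 4 reporter lines marks cells in which regulatory sequence of its named gene is active: PdgfrbGFP (46.2% of cells, 4 plates), Acta2GFP (34.5%, 2 plates), PdgfraGFP (13.8%, 2 plates) and Cspg4dsRED (5.53%, 1 plate). Plates are numbered within a line in the order of their labels, which only names them. No group was treated, tissue of Acta2GFP mice was digested with elastase in addition, and the labels name neither the mouse nor the stretch of colon a plate came from, so p-values cover the spread between lines or plates.

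Each cell carries a cluster label from 1 to 8. The labels give the number alone, and the names used here follow the study. Fibroblasts (79.4% of cells) are cluster 1 (29.3%, crypt middle), cluster 2 (7.96%, sub-epithelial, crypt apex), cluster 5 (25.8%, crypt base to middle), cluster 6 (2.73%, middle to apex) and cluster 7 (13.6%, crypt base). Mural cells (20.6%) are cluster 3 (8.57%, vascular smooth muscle cells, SMC), cluster 4 (8.63%, pericytes) and cluster 8 (3.40%, interstitial SMC). The depth of a cell was 47598 to 1494292 gene counts, and the plate medians lay between 113721 and 725044. The summed level of the mural markers *Rgs5*, *Notch3*, *Mcam*, *Tagln* and *Des* was 1866 to 5472 in clusters 3, 4 and 8 and 15.5 to 226.9 in the fibroblast clusters. That of the fibroblast markers *Pdgfra*, *Col1a1*, *Lum* and *Dcn* was 3435 to 6867 in the fibroblast clusters and 328.5 to 1211 in the mural clusters. Endothelial, immune, epithelial and glial markers summed to 12.9 or less in every cluster. The study excluded cells with an endothelial surface marker at sorting and removed cells with endothelial or immune signatures. It also dropped cells without *Pdgfra* or *Pdgfrb*, so the low sums are not an independent check of purity. *Kit* and *Ano1*, markers of interstitial cells of Cajal, summed to 171.3 in cluster 2, 292.4 in cluster 3, about the same in cluster 4 and to 0.970 to 27.4 in the others, and *Ano1* was lower in fibroblasts than in mural cells and higher in cluster 2 than in clusters 1, 5 and 7 by edgeR; their part in the results on these clusters was not tested. A level is the mean of counts per 500000 counts over the cells of a line, and then the mean over lines with at least 10 such cells, given with the SD between lines.

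The stretch of the homeobox that encodes the DNA-reading helix is shown for some of the members that carry the results below, as codons 41 to 60 of the homeobox. Capitals mark codons 47, 50, 51 and 54, whose residues reach the bases of the major groove. Sequences are read 5′ to 3′ on the coding strand from GENCODE vM21 transcripts (GRCm38).
Hoxb2, chr11:96353105-96353164, plus strand: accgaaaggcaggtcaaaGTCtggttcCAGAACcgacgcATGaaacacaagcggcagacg
Hoxb6, chr11:96300809-96300868, plus strand: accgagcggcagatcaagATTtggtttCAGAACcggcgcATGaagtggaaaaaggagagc
Hoxa10, chr6:52232554-52232613, minus strand: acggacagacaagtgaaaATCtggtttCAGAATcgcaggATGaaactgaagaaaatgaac
Hoxa11, chr6:52243402-52243461, minus strand: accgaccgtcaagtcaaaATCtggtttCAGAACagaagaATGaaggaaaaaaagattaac
Hoxa13, chr6:52258928-52258987, minus strand: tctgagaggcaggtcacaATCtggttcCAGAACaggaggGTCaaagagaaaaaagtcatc
Hoxd13, chr2:74670050-74670109, plus strand: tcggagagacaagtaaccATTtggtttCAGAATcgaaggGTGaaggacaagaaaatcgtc
The first capital codon is GTC in *Hoxb2* and ATC or ATT in the others shown, and the last is GTC or GTG in the group 13 genes *Hoxa13* and *Hoxd13* and ATG in the others shown. Reads were 50 bases long, and 5 pairs of the 38 genes had an exact run of that length in their annotated transcripts. Of the 15 members described by name, with a level of at least 5 in at least 1 cluster, *Hoxb6* was in such a pair, with *Hoxc9*. *Hoxb4*, which is below that level but passed in a test, was in a pair with *Hoxa6*.

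**Figure D1:**
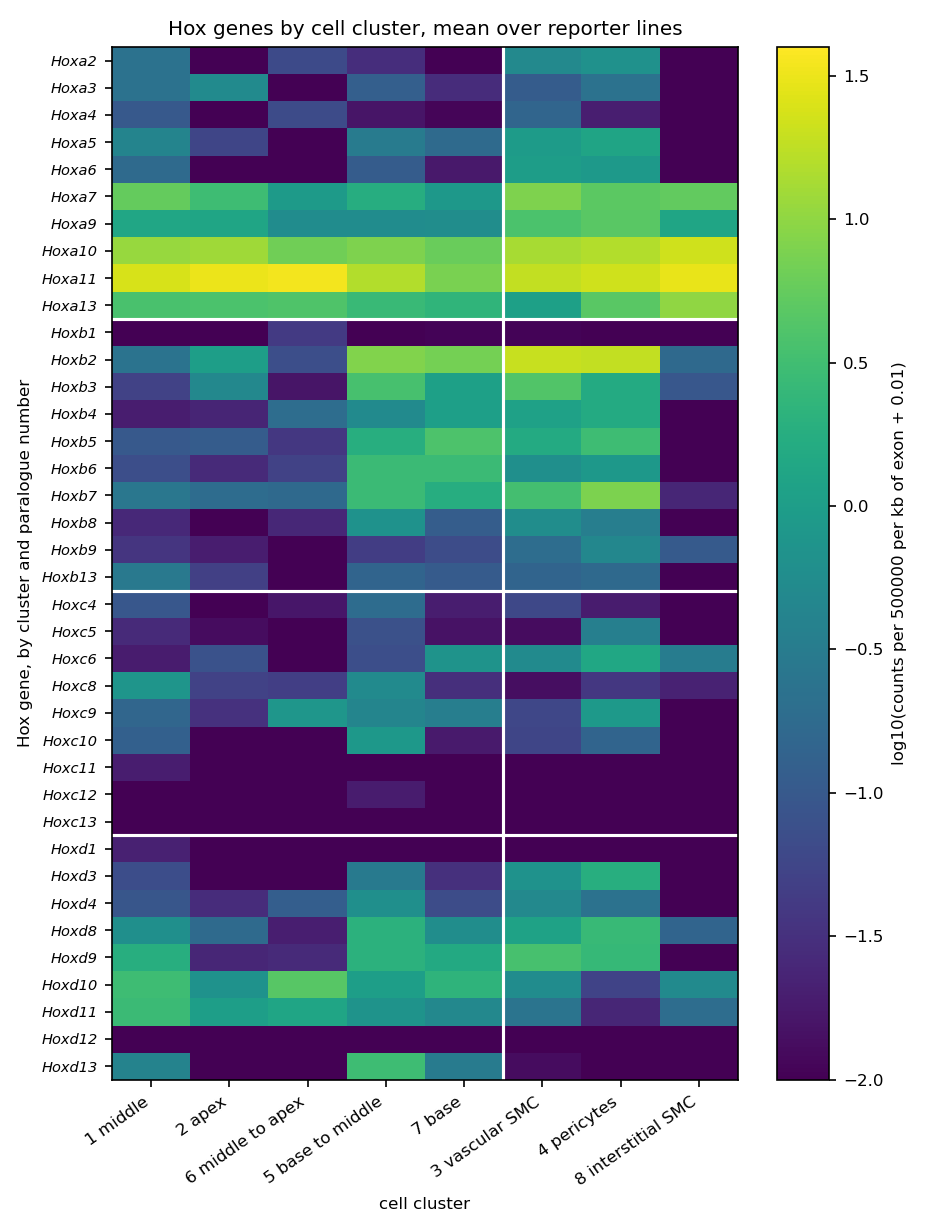
Level per kb of exon not shared with another gene, as log10(counts per 500000 per kb + 0.01), for 38 Hox genes (rows, by Hox cluster and paralogue number) in 8 cell clusters (columns, fibroblasts left and mural cells right of the white line), mean over reporter lines. *Hoxa7* to *Hoxa13* are bright in every column, and *Hoxb2* to *Hoxb8* are brighter in columns 5, 7, 3 and 4 than in columns 1, 2, 6 and 8.

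The posterior HoxA genes *Hoxa10* and *Hoxa11* were the members found in most cells, and both were found in every cluster. *Hoxa10* (chr6:52231197-52240854) had a count in 59.4% of cells and *Hoxa11* (chr6:52242106-52245810) in 51.8%, ahead of *Hoxb2* in 40.5% and *Hoxa7* in 24.1%. Per kb of exon, the level in fibroblasts was 18.8 for *Hoxa11*, 8.54 for *Hoxa10*, 4.03 for *Hoxb2*, 3.15 for *Hoxa13* and 2.45 for *Hoxa7*. Without division by length, the levels in fibroblasts were 27.96 ± 7.40 for *Hoxa11* and 27.92 ± 9.34 for *Hoxa10* (n = 4 lines), and the exon length not shared with another gene was 1487 and 3270 bases. In mural cells the levels per kb were 22.4 for *Hoxa11*, 16.1 for *Hoxa10* and 15.1 for *Hoxb2*. The kit does not mark the strand, so reads of *Hoxa11* and *Hoxa11os*, which had a level of 37.7 ± 4.2 in fibroblasts (SD, n = 4 lines), cannot be told apart where they overlap.

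Across clusters, *Hoxa10* ranged from 19.7 ± 6.2 in cluster 7 (SD, n = 3 lines) to 50.04 ± 2.77 in pericytes (n = 2), with 72.4 in interstitial SMC of the 1 line that had them. *Hoxa11* ranged from 11.1 ± 10.5 in cluster 7 (n = 3) to 51.2 ± 1.4 in cluster 6 (n = 2). The 2 plates with at least 10 cluster 6 cells, both PdgfraGFP, were far apart, at 6.55 and 91.4, with 57.8% and 65.9% of their *Hoxa11* counts in 1 cell each. Neighbouring clusters in these orders overlapped within their SDs for both genes. *Hoxa13*, the last gene of the cluster and a marker of the terminal hindgut in the embryo, lay between 2.74 ± 2.49 in vascular SMC (n = 3) and 11.9 ± 3.7 in pericytes (n = 2), with 25.1 in interstitial SMC. In interstitial SMC 1 cell held 32.1% of the *Hoxa13* counts. By means over lines, *Hoxa7* was highest in vascular SMC, at 18.2 ± 13.3 (n = 3), and *Hoxa9* in pericytes, at 26.3 ± 3.1 (n = 2). Over plates the *Hoxa7* median was 13.2 in vascular SMC (5 plates) and 19.3 in pericytes (3 plates). The 5 anterior HoxA genes, *Hoxa2* to *Hoxa6*, stayed at 2.37 or less in every cluster.

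HoxB levels were high in some cell clusters and low in others. The summed level per kb of *Hoxb2* to *Hoxb8* was 31.03 in vascular SMC, 33.7 in pericytes, 20.4 in cluster 5 and 17.7 in cluster 7, against 0.702, 1.83 and 0.4995 in fibroblast clusters 1, 2 and 6 and 0.261 in interstitial SMC. The share of cells with at least 20 counts of any of these 7 genes was 51.1%, 33.8%, 35.5% and 27.4% in the first 4, and 0.207%, 1.53%, 0% and 0% in the others. Any count of *Hoxb2* to *Hoxb8* was found in 44.9%, 28.2%, 31.1% and 21.4% of cells of clusters 1, 2, 6 and 8, against 80.5% and 72.2% in clusters 5 and 7. After each cell was thinned to 50000 counts, the share with any count was 59.3% in pericytes and 60.6% in cluster 5, against 15.4%, 9.16%, 13.3% and 1.85% in clusters 1, 2, 6 and 8. Smooth muscle markers summed to 962.1 in cluster 6, 48.8 to 199.6 in the other fibroblast clusters and 7990 in interstitial SMC, against 5754 in vascular SMC, and their part in these levels was not tested. For 0 of 45 cells in cluster 6 and 0 of 56 in cluster 8, the share with 20 counts could be up to 6.67% and 5.36%, by counting error alone.

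*Hoxb2* (chr11:96350525-96354012), known for its part in hindbrain patterning, had a level per kb of 19.7 in vascular SMC, 18.7 in pericytes, 8.23 in cluster 5 and 6.95 in cluster 7, beside the sums of 31.03, 33.7, 20.4 and 17.7. For cluster 1 the level was 1.16 in PdgfrbGFP, 0.439 in Acta2GFP and 0.132 in PdgfraGFP. In cluster 5 it was 25.4, 22.9 and 20.9 in the same lines and 14.3 in Cspg4dsRED. In cluster 7 it was 26.1, 15.2 and 11.5. No line of cluster 1 reached the lowest line of cluster 5 or 7. Over 8 plates the level ran from 0 to 2.01 in cluster 1 and from 12.7 to 31.4 in cluster 5, without overlap. In apex fibroblasts the PdgfraGFP line had 6.98 and PdgfrbGFP and Acta2GFP 0.873 and 0.110, and 1 cell held 52.6% of the counts of the cluster.

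Among mural cells, *Hoxb2* was at 33.2 to 64.2 in the 3 lines of vascular SMC, at 18.97 and 75.88 in the 2 lines of pericytes and at 0.406 in interstitial SMC. The gene shares 953 exonic bases with the antisense gene *Hoxb3os*, whose level followed the same order, with 48.5 in vascular SMC, 42.7 in pericytes, 22.4 in cluster 5 and 0.514 in cluster 1. Reads from the 2 strands cannot be told apart there. A count below 20 was common in the clusters with low levels, since 26.7% of cluster 1 cells had a *Hoxb2* count and 0 of them had 20.

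**Figure D2:**
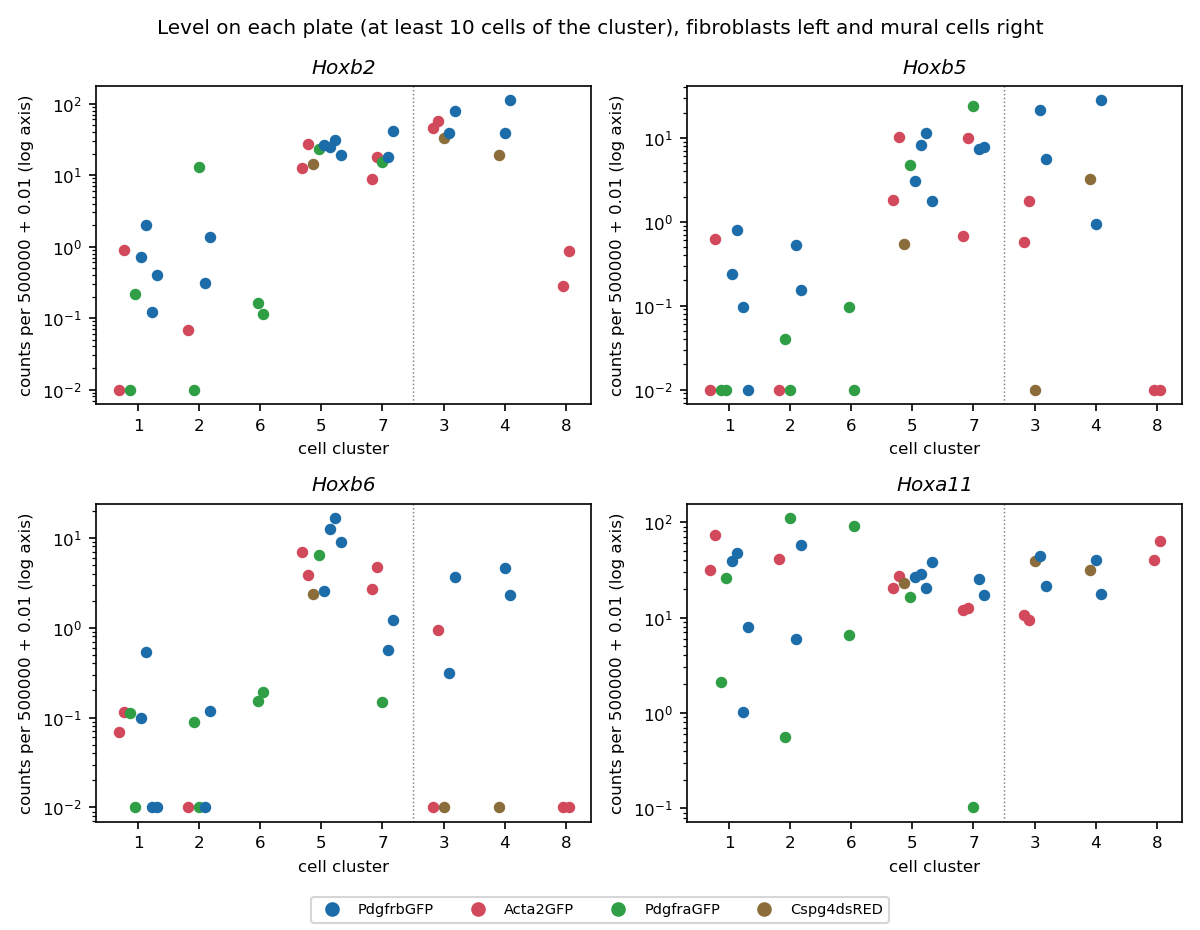
Level of *Hoxb2*, *Hoxb5*, *Hoxb6* and *Hoxa11* on each plate with at least 10 cells of the cluster (counts per 500000 + 0.01, log axis), by cell cluster, with a point per plate coloured by reporter line and the dotted line between fibroblasts and mural cells. *Hoxb2* points of clusters 5, 7, 3 and 4 lie above those of cluster 1 on every plate, while *Hoxa11* shows no such split.

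*Hoxb5* and *Hoxb6* had higher mean levels in clusters 5 and 7 than in cluster 1, with overlap between some plates. *Hoxb6* was at 9.0, 4.71, 5.92 and 2.36 in cluster 5 (PdgfrbGFP, Acta2GFP, PdgfraGFP, Cspg4dsRED) and at 0.254, 0.0813 and 0.0378 in cluster 1, with no overlap between these clusters. In cluster 7 it ran from 0.720 to 11.9 over the 3 lines, and from 0.138 to 4.71 over 5 plates, which overlapped cluster 1 (0 to 0.532 over 8 plates). *Hoxb5* was highest in cluster 7, at 10.4 ± 6.4 (n = 3), against 0.244 ± 0.221 in cluster 1 (n = 3). The highest plate of cluster 1 had a *Hoxb5* level of 0.793 and the lowest plates of clusters 5 and 7 had 0.538 and 0.662. *Hoxb4* was lower, at 1.34 in cluster 5 and 2.71 in cluster 7, against 0.0237 in cluster 1. *Hoxb3* reached 8.32 ± 5.36 in vascular SMC and 7.01 ± 9.86 in cluster 5, and *Hoxb7* 11.8 ± 6.2 in pericytes. *Hoxb8*, *Hoxb9* and the posterior *Hoxb13* stayed at 1.79 or less, and *Hoxb1* had 3 counts in all cells together.

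The difference among the 5 fibroblast clusters was tested on counts summed per cluster and line with edgeR's quasi-likelihood test, adjusted by Benjamini-Hochberg over all genes. Of the 38 members, 32 passed the filter on low counts and 3 passed the threshold of 0.05, *Hoxb2* (adjusted p = 0.000721), *Hoxb6* (0.0313) and *Hoxb4* (0.0360). Of all 21739 genes tested, 7.09% were called. The share of members called, 3 of 32, was near that background. With the reporter line as a block 6 of 32 passed, *Hoxb2*, *Hoxb6*, *Hoxb4*, *Hoxb5*, *Hoxd9* and *Hoxb3*, where 6.4% of all genes were called. The labelled clusters rest on these counts too, which makes the test dependent on the classes. Without the Acta2GFP line none of the 3 passed, *Hoxb2* reaching an adjusted p of 0.0872, and *Hoxb6* and *Hoxb4* also failed without PdgfraGFP or PdgfrbGFP. The share of all genes called fell as well, to 1.06%, 2.91% and 3.31% without these lines.

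Crypt base fibroblasts (cluster 7) had more *Hoxb2* than crypt middle fibroblasts (cluster 1), with a log2 fold change of 5.05 ± 1.04 (SE, adjusted p = 0.0298, edgeR), higher in 3 of 3 lines with both. It was the 1 member called of 32 tested, where 0.488% of all genes were called (0.120% higher and 0.368% lower in cluster 7). *Hoxb4*, *Hoxb6*, *Hoxb5* and *Hoxb3* had log2 fold changes of 6.58, 6.26, 5.20 and 4.70 with adjusted p from 0.113 to 0.386. With the reporter line as a block, *Hoxb2* stayed called and *Hoxb4* passed as well (adjusted p = 0.0357, edgeR), where 0.773% of all genes were called. No member passed with limma on means per cell (*Hoxb2* adjusted p = 0.173) or in a separate fit of the clusters compared (*Hoxb2* adjusted p = 0.0830, edgeR). Without Acta2GFP, PdgfraGFP or PdgfrbGFP no member passed, and *Hoxb2* kept log2 fold changes of 4.85 to 5.65, where 0.0709%, 0.209% and 0.151% of all genes were called.

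**Figure D3:**
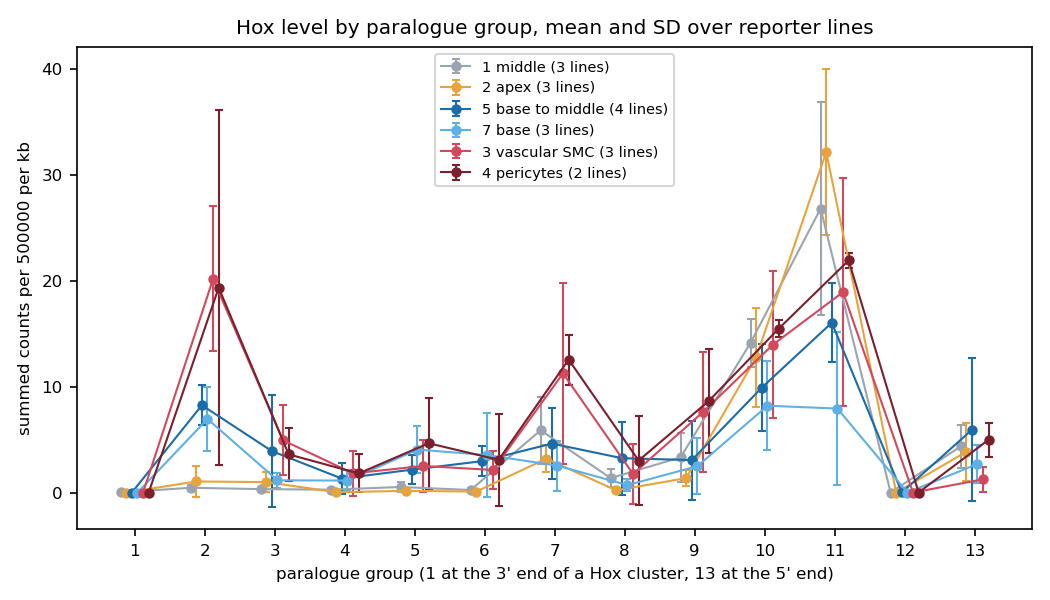
Summed level per kb of the members of each paralogue group (1 at the 3′ end, 13 at the 5′ end) in 6 cell clusters, as mean and SD (bars) over reporter lines in counts per 500000 per kb. Group 10 lies between 8.201 and 15.5 and group 11 between 7.94 and 32.2, both lowest in cluster 7, and group 2 is at 20.2 in vascular SMC, 19.4 in pericytes, and at 8.25, 6.95, 1.05 and 0.448 in clusters 5, 7, 2 and 1.

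Of the HoxD genes, *Hoxd10* and *Hoxd11* had higher mean levels in fibroblasts than in mural cells, without passing the test. *Hoxd11* (chr2:74679557-74687016) was at 10.6 ± 7.4 in cluster 1 (n = 3), 3.82 ± 3.16 in cluster 2 (n = 3) and 2.62 ± 1.62 in cluster 5 (n = 4), against 0.867 ± 1.502 in vascular SMC (n = 3) and 0.0542 in pericytes (n = 2). On plates with at least 10 cells, *Hoxd11* had a median level of 0.269 in cluster 2 (5 plates) and 3.01 in cluster 5 (8 plates), so the order of these clusters depended on the plates counted. In cluster 7 the *Hoxd11* median was 0.486, with 3 of 5 plates below 1. *Hoxd10* was at 5.26 ± 1.39 in cluster 1 and 0.945 ± 1.596 in vascular SMC, and its plate median in cluster 2 was 0.239, with 4 of 5 plates below 1. For *Hoxd11* the levels of the 4 lines of fibroblasts, 0.137 to 7.73, and those of the 3 lines of mural cells, 0 to 1.49, overlapped, and the log2 fold change of 2.97 ± 1.48 did not pass (adjusted p = 0.306, edgeR). Both genes share exons with *Gm28309* on the same strand.

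*Hoxd13* (chr2:74668310-74671599), the most posterior HoxD gene, was found in 50 fibroblasts and in 1 mural cell. Fibroblasts of PdgfrbGFP had a level of 0.962, those of Acta2GFP 2.44, those of PdgfraGFP 0.672 and those of Cspg4dsRED 10.1. In mural cells it was 0, 0.00820 and 0 in PdgfrbGFP, Acta2GFP and Cspg4dsRED. All lines of fibroblasts lay above those of mural cells, and 12 fibroblasts had at least 20 counts. Within fibroblasts it was at 7.63 ± 9.90 in cluster 5 (n = 4) and at 0 in every line of clusters 2 and 6 with enough cells. *Hoxd12*, its neighbour, and *Hoxc13* had no count in any cell.

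Fibroblasts and mural cells were compared over 4 and 3 line sums. Of 31 members tested 3 passed, 2 lower in fibroblasts and 1 higher, where 6.57% of 19173 genes were called, 3.36% lower and 3.21% higher. *Hoxa9* was at 3.84, 4.41, 8.93 and 4.37 in fibroblasts of PdgfrbGFP, Acta2GFP, PdgfraGFP and Cspg4dsRED and at 20.3, 14.4 and 23.6 in mural cells of the lines that had them, PdgfrbGFP, Acta2GFP and Cspg4dsRED. The lines did not overlap, but plates did, with 3.29 to 9.97 over 9 plates of fibroblasts and 0.235 to 28.6 over 6 plates of mural cells. The *Hoxa9* log2 fold change was -2.42 ± 0.55 (SE, adjusted p = 0.0284, edgeR).

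*Hoxb2* was at 13.8, 10.2, 8.46 and 8.39 in fibroblasts and at 69.2, 19.7 and 25.7 in mural cells, without overlap between lines. Plates overlapped, with 0.213 to 16.3 in fibroblasts and 9.84 to 94.6 in mural cells. The *Hoxb2* log2 fold change was -1.90 ± 0.47 (adjusted p = 0.0419, edgeR). *Hoxd13* had a fitted log2 fold change of 9.32 ± 2.14 (adjusted p = 0.0308, edgeR), which depends on the prior count because mural cells were almost at 0. With the line as a block none of the 3 passed (adjusted p = 0.0781 for *Hoxa9*, 0.0801 for *Hoxd13* and 0.129 for *Hoxb2*), where 3.08% of all genes were called. The median log2 fold change of the members tested was -1.03, against -0.0278 over all genes. It moved to -0.307 without PdgfrbGFP (0.0315 over all genes) and to -1.22 without Cspg4dsRED (0.0335). In a joint fit of all clusters it was -0.188 (0.182). Without Acta2GFP, Cspg4dsRED or PdgfrbGFP no member passed, and without PdgfraGFP *Hoxa9* and *Hoxd13* did. The shares of all genes called were then 3.24%, 5.66%, 1.81% and 5.81%. On sums per plate *Hoxb2* did not pass (adjusted p = 0.0578, edgeR), and in a joint fit of all clusters *Hoxa9* did not (adjusted p = 0.0712, edgeR) and *Hoxd13* had no usable estimate. The sums pool different mixes of clusters, which move with the reporter lines.

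Between apex fibroblasts (cluster 2) and clusters 1, 5 and 7, 0 of 32 members passed by edgeR, where 6.28% of genes were called (4.42% higher, 1.86% lower). By unadjusted p under 0.05, 7 of 32 members were past the threshold, and the share of all genes at that threshold was not computed. DESeq2 called 6 members and limma on means per cell called 1, where they called 11.9% and 6.35% of all genes. With the reporter line as a block, where 5.95% of genes were called, *Hoxd9* (log2 fold change -6.46 ± 1.5045, adjusted p = 0.0156, edgeR) and *Hoxb6* (-5.77 ± 1.603, adjusted p = 0.0448, edgeR) were lower in apex fibroblasts. *Hoxd9* did not pass without the block (adjusted p = 0.280), on sums per plate (0.0994), in a separate fit (0.188) or with limma (0.784), while DESeq2 called it. The median log2 fold change by edgeR was -2.74, against -0.0873 over all genes, and 7 members lay above 0. This median includes members with no usable estimate, such as *Hoxa2* at -3.43 ± 9880 (SE). With limma on means per cell the medians were -0.0562 and -0.0154. Levels in apex fibroblasts were 0.0327 ± 0.0311 for *Hoxb6*, 0.0307 ± 0.0279 for *Hoxd9* and 0 for *Hoxd13* (n = 3 lines each), beside 39.6 ± 15.5 for *Hoxa10* and 46.3 ± 12.9 for *Hoxa11*.

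Between pericytes and vascular SMC, 0 of 32 members passed by edgeR, 0 by DESeq2 and 1 by limma, where 0.819% of genes were called by edgeR, 7.66% by DESeq2 and 2.95% by limma (edgeR 0.621% higher and 0.198% lower in pericytes). At an unadjusted p under 0.05 by edgeR there were 3 members, and the share of all genes at that threshold was not computed. Interstitial SMC, present in enough cells in Acta2GFP alone, were a single sum, set against vascular SMC on the assumption that it varies like the other clusters. Within Acta2GFP, whose tissue was also digested with elastase, *Hoxb2* was at 52.4 in vascular SMC and 0.406 in interstitial SMC. No member passed, which says little about interstitial SMC, with 4 at an unadjusted p under 0.05, 4 called by DESeq2 and 2 by limma, where 1.01% of genes were called by edgeR, 7.02% by DESeq2 and 3.71% by limma (edgeR 0.879% higher and 0.129% lower in interstitial SMC). *Hoxb2* had a log2 fold change of -6.55 and *Hoxa13* of 4.75 in interstitial against vascular SMC. Of 200 genes given a known log2 change of 4 in simulated data, edgeR recovered 47 for pericytes, 36 for interstitial SMC and 58 for cluster 7 against cluster 1, so changes of that size would often be missed.

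Some members varied widely between plates. In fibroblasts of clusters 1, 5 and 7, *Hoxd9* (chr2:74697727-74700208) was at 3.89, 0.0583, 23.04 and 11.25 on PdgfrbGFP plates 1 to 4. It was at 0 and 12.5 on PdgfraGFP plates 1 and 2, at 0.0193 and 0.0204 on the Acta2GFP plates and at 6.05 on the Cspg4dsRED plate. High and low plates occurred within PdgfrbGFP and within PdgfraGFP. Mural cells had 15.7 and 18.7 on PdgfrbGFP plates 3 and 4 and 0 to 0.0475 on the 4 other plates with enough cells.

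Few cells carried these counts. A *Hoxd9* count was found in 26.1% of these fibroblasts on PdgfrbGFP plate 3, 42.3% on plate 4, 12.7% on plate 1 and 3.88% on plate 2, in 13.6% on PdgfraGFP plate 2 and in 0.621% and 0.746% on the Acta2GFP plates. The level on the Cspg4dsRED plate came from 1 of 26 cells. The highest cell held 39.3%, 38.5% and 40.9% of the *Hoxd9* counts on PdgfrbGFP plates 3, 4 and 1.

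In the same fibroblasts *Hoxa13* was below 1 on 2 of 9 plates, PdgfrbGFP plate 4 and PdgfraGFP plate 2, which both had *Hoxd9*. It was at 2.85 and 0.0167 on PdgfrbGFP plates 3 and 4 and at 0.356 on PdgfraGFP plate 2, with a count in 3, 1 and 3 cells. It was at 3.46 and 8.26 on PdgfrbGFP plates 1 and 2, at 13.2 and 9.54 on the Acta2GFP plates, at 9.19 on PdgfraGFP plate 1 and at 12.7 on the Cspg4dsRED plate. In mural cells of PdgfrbGFP plates 3 and 4 *Hoxa13* was at 13.5 and 2.91. *Hoxd13* had no count in 46 and 26 cells on PdgfrbGFP plates 3 and 4 and in 110 on PdgfraGFP plate 2, which allows shares of cells with a count of up to 6.52%, 11.5% and 2.73%, by counting error alone. On the other 6 plates its level was 1.02 to 10.9, from 3 to 13 cells each, with 41.8% to 99.2% of the counts in 1 cell.

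*Hoxd8*, the neighbour of *Hoxd9*, was at 5.24 and 11.6 on PdgfrbGFP plates 3 and 4, at 9.62 on PdgfraGFP plate 2 and at 0.0547 on PdgfraGFP plate 1. It was also at 5.21 on PdgfrbGFP plate 1, where *Hoxd9* was at 3.89, and at 0 on the Cspg4dsRED plate, where *Hoxd9* was at 6.05 from 1 cell. Median depth was 185579, 650920 and 249443 counts per cell on PdgfrbGFP plates 3 and 4 and PdgfraGFP plate 2. These plates were singled out after their values were seen and carry no test. Which mice and which part of the colon they came from was not given in the sources used here.

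**Figure D4:**
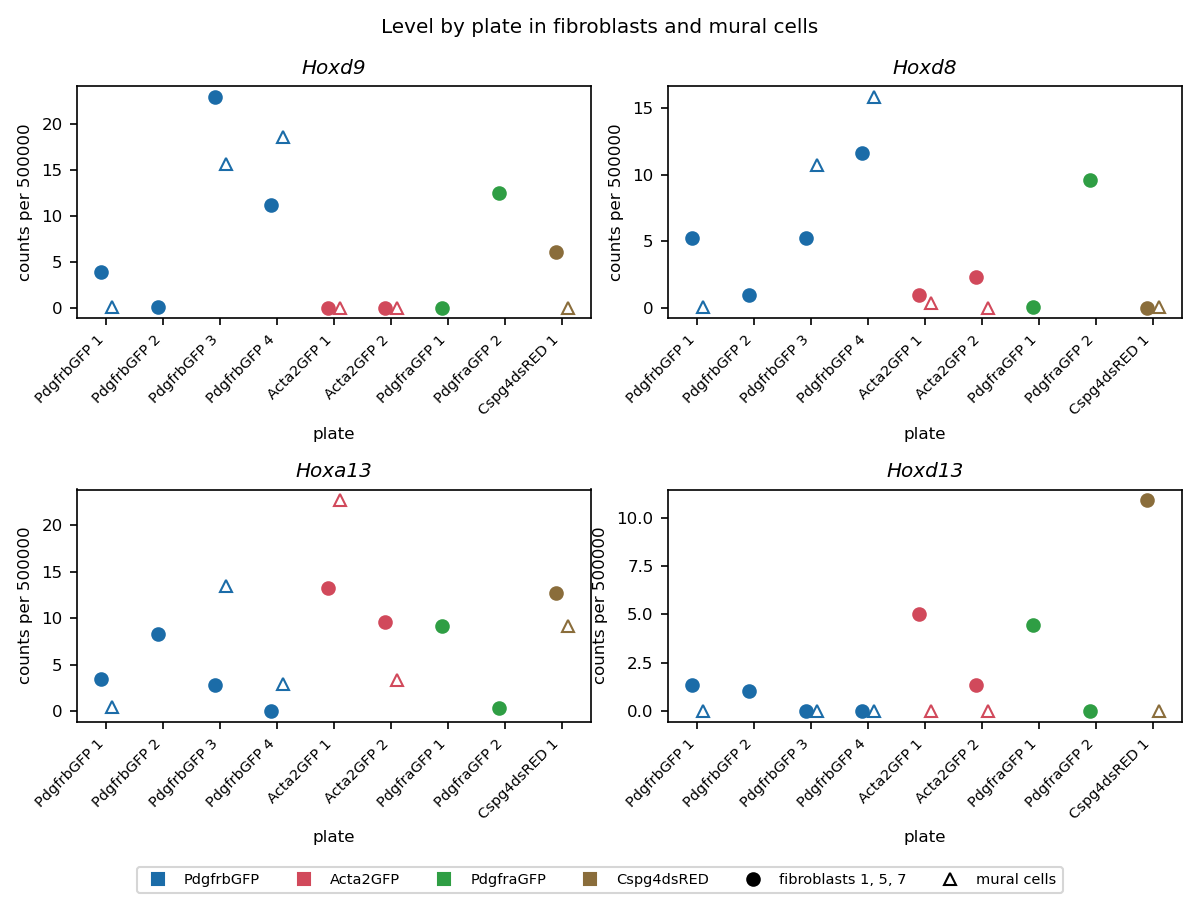
Level (counts per 500000) of *Hoxd9*, *Hoxd8*, *Hoxa13* and *Hoxd13* on each of 9 plates, for fibroblasts of clusters 1, 5 and 7 (filled circles) and mural cells (open triangles, plates with at least 10), coloured by reporter line. *Hoxd13* is at 0 and *Hoxa13* at 0.0167 to 2.85 in fibroblasts of PdgfrbGFP plates 3 and 4 and PdgfraGFP plate 2, where *Hoxd9* is at 11.25 to 23.04.

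Between reporter lines, fibroblasts of clusters 1, 5 and 7 were compared on sums per plate. Acta2GFP and PdgfraGFP were each set against PdgfrbGFP, and 0 of 31 members passed by edgeR, by DESeq2 and by limma. By edgeR 1 member in each had an unadjusted p under 0.05, a threshold at which the share of all genes was not computed. Of all 20114 genes, 0% were called by edgeR in both. Without PdgfraGFP plate 2, *Hoxa11* passed for that line (adjusted p = 0.0416, edgeR), where plate 1 alone stood for that line with a level of 1.64, its spread was taken from the other lines and 0.454% of all genes were called.

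HoxC genes were rare. The summed level per kb of the 9 genes was 2.77 or less in every cluster, and 8.57% of fibroblasts and 9.44% of mural cells had a count of any of them. For *Hoxc5*, 1 cell held 76.4% of all counts. In all, 23 members stayed below a level of 5 in every cluster. The median cell had 3 Hox genes with a count in fibroblasts and in mural cells, and 5.43% and 5.60% of cells had none. After thinning the median was 2 in both.

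The TALE cofactors *Meis1* and *Meis2* were lower in apex fibroblasts than in clusters 1, 5 and 7. *Meis1* was at 10.4 ± 4.1 in apex fibroblasts and at 27.8 ± 4.3, 67.1 ± 16.7 and 69.1 ± 22.8 in clusters 1, 5 and 7 (n = 3, 3, 4 and 3 lines), with a log2 fold change of -2.04 ± 0.44 (adjusted p = 0.00626, edgeR). *Meis2* had a log2 fold change of -2.73 ± 0.70 (adjusted p = 0.0213, edgeR). Between apex fibroblasts and clusters 1, 5 and 7, 6.28% of all genes were called. *Meis1* and *Meis2* also passed the test among the 5 fibroblast clusters, as 2 of 11 TALE genes tested, where 7.09% of all genes were called. None of the 16 chromatin regulators of Hox clusters, such as *Ezh2* and *Kmt2a*, passed in any comparison. Since 0% to 7.09% of all genes were called in these, 0 of 16 says little about the regulators. Of 11 non-coding genes of the Hox clusters, *Hoxb3os* passed in 3, among the fibroblast clusters, lower in fibroblasts than in mural cells (-1.88 ± 0.46, adjusted p = 0.0406, edgeR) and higher in cluster 7 than in cluster 1 (4.97 ± 1.01, adjusted p = 0.0274, edgeR). The shares of all genes called in these were 7.09%, 6.57% and 0.488%. Calls of *Meis1*, *Meis2* and *Hoxb3os* are from fits without a line block, and other settings are not given for them. Of the 8 neighbouring and ParaHox genes, *Evx1*, *Cdx4*, *Pdx1*, *Gsx1* and *Gsx2* were listed at 0 in fibroblasts, and *Cdx2* was at 0.808.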

How the data were processed

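Per the labels, 1646 SmartSeq2 libraries of single colon cells were analysed. The authors trimmed adapters, mapped the 50-base reads to GRCm38 with TopHat2, removed what the methods call doublets with samtools and deposited raw counts per gene from featureCounts. Strand use was not stated. Rows for the 92 ERCC controls (1.36% of counts) were left out. Clusters and reporter lines were taken from the labels, and 0 columns were unused. Reads carry no molecular identifiers.

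Counts were summed per reporter line and cluster or class with at least 10 cells, or per plate for the comparison of lines, and tested with edgeR 4.0.16 (TMM, filterByExpr, glmQLFit, glmQLFTest) over all genes, with Benjamini-Hochberg adjustment at 0.05. The SE is the log2 fold change over the square root of F. Cells share lines, so they were not replicates, and plates of a line may share mice. Sums of a line deviated together in fibroblasts and mural cells (r = 0.152 to 0.174) and in clusters 7 and 1 (0.12 to 0.17), from the line named in the labels. All members with a level of at least 5 in 1 cluster, and every member called, are named. The members, lists, rules and tests were chosen with earlier results of these data known. No doublet caller was run. Thinning left out 11 cells below 50000 counts. Tests were run on simulated data with a known log2 change of 4 given to 200 genes, of which edgeR recovered 115 for fibroblasts against mural cells (1 false call of 19173 genes) and DESeq2 162 (148 false calls). Alternatives were DESeq2 1.42.0, limma 3.58.1 on means of log2(counts per 500000 + 1), no filter, a line block, plates, at least 3 cells per sum, other fits and each line or plate left out. R 4.3.3 was used. Some sequences and 1 cofactor gene are not reported here.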

Additional observations from a re-analysis of the deposited data

Results flagged for a closer look

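In 30 groups of 4 to 9 values, 6 had a highest or lowest value far from the rest by Dixon's test at 95%, where chance gives about 1 in 20 groups. On 1 of 9 plates each, in fibroblasts of clusters 1, 5 and 7, *Hoxa7* was at 21.76 on PdgfraGFP plate 1 (next 10.01), *Hoxa10* at 11.87 on the Cspg4dsRED plate (next 25.08), *Hoxb3* at 13.10 on PdgfraGFP plate 2 (next 2.185) and *Hoxd13* at 10.91 on the Cspg4dsRED plate (next 5.034). Among the 4 lines of fibroblasts, *Hoxa9* was at 8.929 in PdgfraGFP (next 4.407) and *Hoxb6* at 3.669 in PdgfrbGFP (next 2.512).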

How the results depend on the processing

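The number of members called moved with the settings. So did the share of all genes called: for the fibroblast clusters it was 7.09% by edgeR, 18.4% by DESeq2, 6.54% without the filter, 17.5% over plates and 9.63% with at least 3 cells; for fibroblasts against mural cells it was 6.57%, 16.5%, 3.81%, 16.1% and 6.57%; for apex fibroblasts 6.28%, 11.9%, 5.03%, 10.4% and 5.6%; and for cluster 7 against cluster 1 0.488%, 3.57%, 0.485%, 2.61% and 0.814%. For fibroblasts against mural cells, 3 by edgeR became 0 with limma and 0 to 2 without 1 line. DESeq2 called 4 (*Hoxa9*, *Hoxa6*, *Hoxb2* and *Hoxa10*) and gave no adjusted p for *Hoxd13*, no filter and sums per plate each called 2 (*Hoxa9* and *Hoxd13*), and the joint fit called 2 (*Hoxb2* and *Hoxb9*). Among the fibroblast clusters, 3 became 8 with DESeq2, 5 without the filter on low counts, 10 over plates, 6 with at least 3 cells per sum and 0 to 5 without 1 line. For apex fibroblasts, 0 became 6 with DESeq2, 3 over plates, 1 with limma, 1 in a separate fit and 0 to 1 without 1 line. For cluster 7 against cluster 1, 1 became 5 with DESeq2, 5 over plates, 0 with limma, 0 in a separate fit and 0 to 1 without 1 line. For pericytes, 0 became 1 with limma. For interstitial SMC no fit was possible without Acta2GFP, the 1 line with enough of these cells, and counts of calls are not given. For PdgfraGFP against PdgfrbGFP, 0 became 1 without PdgfraGFP plate 2.

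With the reporter line as a replicate block, the counts were 0 for fibroblasts against mural cells, 6 among the fibroblast clusters, 2 for apex fibroblasts, 2 for cluster 7 against cluster 1, and 0 for pericytes. The correlation of line deviations was 0.0557 to 0.137 between cluster 2 and clusters 1 or 5 and 0.167 to 0.177 between clusters 4 and 3.

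In comparisons with a direction, no member called by edgeR without a block changed direction under a setting that gave it an adjusted p. Members called only under another setting were not checked for this. Members above 0 between fibroblasts and mural cells went from 9 of 31 to 15 of 32 in the joint fit. Depth limits shares of cells with any count, which moved under thinning and with at least 20 counts, and the cause of the other changes was not tested.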
